A study of Mus musculus with 24 samples.

Results

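A repeat of 8 columns runs through 24 expression arrays of the osteocyte-like mouse line MLO-Y4, and the comparison reported here sets the fourth pair of places in that repeat against the third pair. The arrays were numbered 1 to 24 in the order in which they were deposited, and each was given a set by its place among 8 consecutive columns. Sets 7 and 8 hold columns 7, 8, 15, 16, 23 and 24, sets 5 and 6 hold columns 5, 6, 13, 14, 21 and 22, and these 12 arrays of 24 were compared as 6 against 6. The repeat was seen in the values of all genes, so these values chose the sets, every difference between the sets is a description, and no gene or gene list was tested. The sets do not follow the labels. In sets 7 and 8, columns 7 and 8 are labelled sham 2 h, column 15 sham 8 h, column 16 flow 8 h, and columns 23 and 24 flow 24 h. In sets 5 and 6, columns 5 and 6 are labelled flow 0 h, columns 13 and 14 sham 8 h, column 21 sham 24 h, and column 22 flow 24 h. Each pair of sets thus holds 3 arrays labelled flow and 3 labelled sham, and no flow effect or time course is claimed for either. Whether the labels or the order of the columns went wrong, or neither, was not tested.

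All cells are of the labelled mixed strain (C57B1/6, BALB/c and DBA2) and grew on glass slides coated with type I collagen. The arrays labelled flow are of cells that had 2 h of oscillating fluid flow at a peak of 10 dyn/cm2 and 1 Hz, and those labelled sham are of cells kept in static chambers. The labelled times, 0, 2, 8 and 24 h, count from the end of flow. The methods speak of triplicates of the cells, and since neither they nor the labels tie each array to a culture of its own, part of the spread between arrays may be technical. The other 12 arrays, sets 1 to 4, are given only as levels beside the comparison. Levels are log2 values made with RMA, a method that gives the probe intensities of all arrays the same distribution before they are summarized. The medians of the summarized values still ran from 6.71 to 6.80 over the arrays. A difference of 1 is a 2-fold difference, and each of 12393 genes is represented by 1 probe set. The number of arrays limits the precision.

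Osteocytes are cells of the bone matrix that sense load through fluid movement and signal to bone-forming and bone-resorbing cells, in part through prostaglandins, chemokines and the ligands that control osteoclasts. Several of the gene groups that follow answer to known regulators. Genes of cholesterol and fatty acid synthesis are driven by the SREBP transcription factors when sterols are scarce, genes of the lysosome by TFEB and its relatives through the CLEAR element, genes of inflammation by NF-kB, clock genes by BMAL1 and CLOCK at E-boxes, and genes of ribosome assembly by MYC, which also binds E-boxes. Which of these regulators acted in the cells is not measured by these arrays.

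Promoter sequence is shown for 5 genes of the groups that separate the pairs of sets. The windows are from RefSeq (GRCm38.p6) and run from 250 bases before a gene's start to 50 bases after it, 5′ to 3′ on the strand of the gene. Capitals mark matches, on either strand, to the NF-kB site (GGG, 2 bases of any kind, TT, 1 base of any kind, CC) in Cxcl1 and to the E-box CACGTG in the others.
Cxcl1, a chemokine lower in sets 7 and 8, chr5:90890995-90891294, plus strand: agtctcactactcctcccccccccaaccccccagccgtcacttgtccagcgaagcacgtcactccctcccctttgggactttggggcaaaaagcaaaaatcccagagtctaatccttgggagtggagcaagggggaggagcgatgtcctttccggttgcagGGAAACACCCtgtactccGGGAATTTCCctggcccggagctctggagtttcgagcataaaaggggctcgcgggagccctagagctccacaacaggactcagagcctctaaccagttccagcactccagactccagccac
Mcoln1, a lysosomal channel higher in sets 7 and 8, chr8:3500269-3500568, plus strand: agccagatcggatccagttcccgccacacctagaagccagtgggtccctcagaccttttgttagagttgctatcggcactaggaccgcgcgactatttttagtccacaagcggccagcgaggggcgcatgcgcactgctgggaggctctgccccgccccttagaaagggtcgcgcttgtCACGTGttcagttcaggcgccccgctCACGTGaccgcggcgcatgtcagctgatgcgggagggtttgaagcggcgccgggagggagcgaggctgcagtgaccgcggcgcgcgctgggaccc
Ctsa, a lysosomal protease higher in sets 7 and 8, the second of 2 windows, chr2:164833523-164833822, plus strand: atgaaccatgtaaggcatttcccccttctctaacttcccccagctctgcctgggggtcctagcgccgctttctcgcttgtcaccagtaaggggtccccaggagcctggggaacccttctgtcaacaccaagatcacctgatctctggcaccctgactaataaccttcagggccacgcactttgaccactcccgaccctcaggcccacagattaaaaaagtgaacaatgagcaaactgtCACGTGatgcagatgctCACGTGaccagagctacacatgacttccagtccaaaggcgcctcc
Cry1, a clock repressor higher in sets 7 and 8, chr10:85185005-85185304, minus strand: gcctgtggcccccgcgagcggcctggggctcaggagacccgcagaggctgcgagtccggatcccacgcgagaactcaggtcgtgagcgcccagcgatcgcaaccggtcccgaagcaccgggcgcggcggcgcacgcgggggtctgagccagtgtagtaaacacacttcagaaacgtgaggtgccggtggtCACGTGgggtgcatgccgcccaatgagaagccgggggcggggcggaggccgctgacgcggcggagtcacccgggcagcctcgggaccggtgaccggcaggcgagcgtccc
Wdr43, a ribosome assembly factor lower in sets 7 and 8, chr17:71615965-71616264, plus strand: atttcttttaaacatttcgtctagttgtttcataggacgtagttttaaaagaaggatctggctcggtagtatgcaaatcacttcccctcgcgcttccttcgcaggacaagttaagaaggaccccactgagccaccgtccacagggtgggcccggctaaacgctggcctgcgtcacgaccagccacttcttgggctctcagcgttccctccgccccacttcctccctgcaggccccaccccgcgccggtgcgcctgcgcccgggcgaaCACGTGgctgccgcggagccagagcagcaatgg

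The 2 matches in Cxcl1 begin 89 and 71 bases before the start, those in Mcoln1 71 and 45 bases before it, and the match in Cry1 60 bases before it. In the second window of Ctsa 1 match begins 12 bases before the start and 1 begins 6 bases after it, and in Wdr43 the match begins 18 bases after the start. An E-box stood in the windows of 13 of 27 lysosome and autophagy genes (48.1%), 4 of 14 clock genes (28.6%) and 5 of 24 ribosome biogenesis genes (20.8%), beside 10.8% of the 9887 array genes with a window. Many of these carriers overlapped between the pairs of sets. They were Lamp1, Gla, Atp6v0d1, Atp6v1a, Atg5 and Atg7 of the lysosome list, Per1 and Bhlhe41 of the clock list, and Utp20 and Pes1 of the ribosome list. The CLEAR core TCACGTGA, which contains the E-box, stood in 6 of the 27 lysosome and autophagy windows (22.2%), beside 1.76% of array genes. The NF-kB site stood in 4 of 10 C-X-C chemokine windows (40.0%) and 2 of 13 C-C and C-X3-C chemokine windows (15.4%), beside 6.19%. Of the genes with this site only Cxcl1 separated the pairs of sets, and Cxcl2, Cxcl9, Cxcl10, Ccl9 and Ccl20 overlapped. Cxcl5, Cxcl11 and Ccl2 had no window. The sterol regulatory element TCACNCCAC was found in 1 of 15 windows of cholesterol genes (6.67%), beside 1.5%. These matches describe letters only.

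As deviations from the mean of the series, the 6 arrays of sets 7 and 8 were more highly correlated with each other than were the 6 of sets 5 and 6. After subtracting the mean of each gene over the 24 arrays, the 15 correlations within sets 7 and 8 ran from 0.552 to 0.744, with a median of 0.638. Within sets 5 and 6 they ran from 0.0702 to 0.604, with a median of 0.251, and were 0.496 to 0.604 for the 2 arrays of the same column block (columns 1 to 8, 9 to 16 and 17 to 24) and 0.0702 to 0.398 for arrays of different blocks. Between the pairs of sets they ran from -0.139 to 0.369. Columns 5 and 6, labelled flow 0 h, lay closest to sets 7 and 8, at 0.147 to 0.369, and without them the correlations between the pairs ran from -0.139 to 0.132. These are correlations across genes, which are not independent replicates, and all arrays share 1 normalization. Arrays that share a distance from the mean over 24 arrays correlate through it, so these values do not measure spread alone. With sets 1 to 4 the median correlation was -0.414 for sets 7 and 8 and -0.217 for sets 5 and 6. The median absolute difference over all genes was 0.0498 between sets 7 and 8 and 0.0523 between sets 5 and 6. The nearest array lay in the same pair of sets for all 12 arrays and carried the same label for 8 of them. It was always the neighbouring column of the same block, so this does not show that a pair holds together across blocks. The sets were also chosen on these values. Columns 15 and 16, labelled sham 8 h and flow 8 h, were nearest to each other, as were columns 21 and 22, labelled sham 24 h and flow 24 h.

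**Figure D1:**
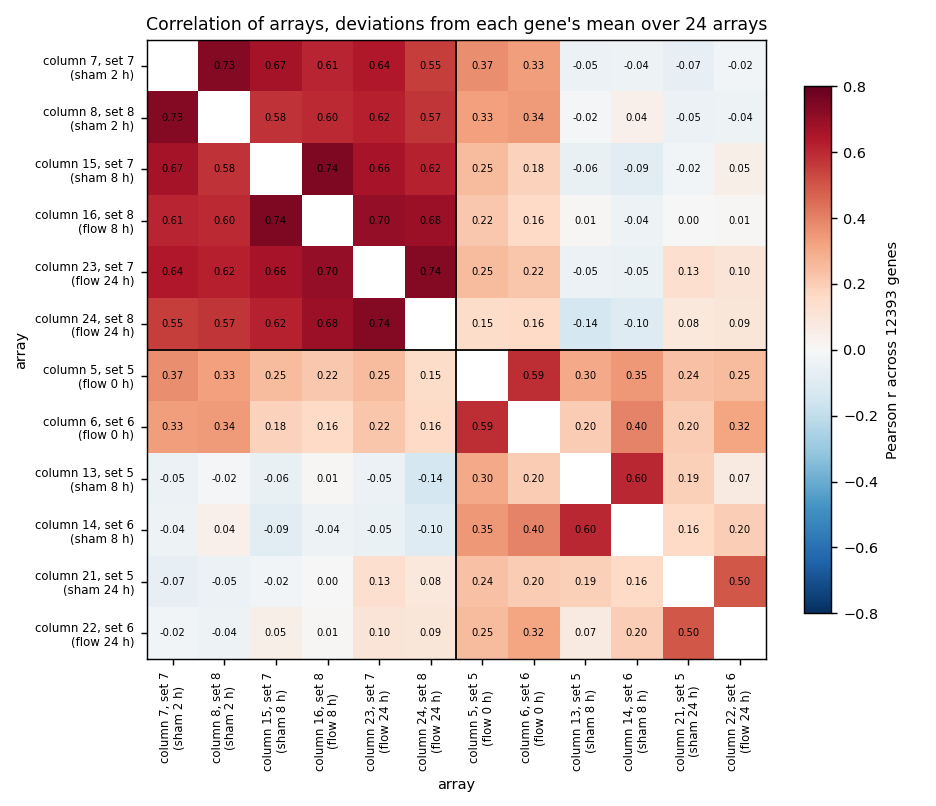
Pearson correlation, across 12393 genes, of the 12 arrays after the mean of each gene over 24 arrays was subtracted. The first 6 rows and columns are sets 7 and 8, where every correlation is at least 0.552, and the last 6 are sets 5 and 6, where values of 0.496 and above belong to the 3 pairs of neighbouring columns.

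For RNA added from outside the cells no difference between the pairs passed the test. Mean differences for the 8 spike-ins, sets 7 and 8 minus sets 5 and 6, ran from 0.0057 to 0.0943 (log2), and an exact permutation test of 6 arrays against 6, two-sided, gave p from 0.197 to 0.955 and adjusted p (Benjamini-Hochberg over 8 spike-ins) from 0.848 to 0.955, where the smallest p such a test allows is 0.00216. The test exchanged arrays freely between column blocks and takes no account of them. For 5 of the 8 spike-ins, column 8 was the highest of the 12 arrays. The 3′ minus 5′ difference of beta-actin, a sign of RNA quality, was 0.224 to 0.262 in sets 7 and 8 and 0.150 to 0.242 in sets 5 and 6, and that of Gapdh was -0.189 to -0.158 in sets 7 and 8 and -0.173 to -0.101 in sets 5 and 6. Array medians ran from 6.71 to 6.80. With both 3′ minus 5′ differences as covariates, 1152 genes were higher and 1155 lower without overlap in sets 7 and 8, beside 1089 and 779 without them.

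In sets 7 and 8, 1089 genes lay above and 779 below all arrays of sets 5 and 6, which is 8.79% and 6.29% of all genes. Centring each array on its median turned this split to 918 higher and 999 lower. At 2-fold or more without overlap there were 15 genes in each direction (0.121% each). Of the 32 genes at 2-fold or more (0.258%), only the chemokines Cxcl2 and Ccl7 overlapped between the pairs. The smallest such differences were those of H2-M10.1 at 1.00 and Col6a3 at -1.0, and just outside the limit lay Taf7l at 0.99 and Id3 at -0.96. Differences between pairs exceeded those inside a pair. At 2-fold or more, 29 to 33 genes differed between a set of one pair and a set of the other, and 0 differed between sets 7 and 8 or between sets 5 and 6. With 3 arrays against 3, the median absolute difference over all genes was 0.0918 to 0.0967 between a set of one pair and a set of the other. It was 0.0498 between sets 7 and 8 and 0.0523 between sets 5 and 6. Between the pairs, with 6 arrays against 6, it was 0.0783. Because the sets were chosen on these values, these counts describe the sets and nothing is read from their size.

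For most of the strongest genes it was sets 7 and 8 that stood apart from the rest of the series. Of the 15 genes at 2-fold or more that were higher in sets 7 and 8, 11 lay above all 18 other arrays, and of the 15 that were lower, 11 lay below all 18. Plscr2, named here after its values were seen, was the only one of the 30 for which sets 5 and 6 stood apart, at a mean of 7.90 in sets 7 and 8, 8.98 in sets 5 and 6 and 8.23 in sets 1 to 4. Among all genes without overlap, only sets 7 and 8 stood apart for 627 of the 1089 higher genes and 301 of the 779 lower genes, and only sets 5 and 6 for 61 of the higher and 55 of the lower genes.

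Among genes with a mean log2 value of at least 6 in the higher pair, those with the highest excess in sets 7 and 8 had varied roles. N4bp2l1, which that limit leaves out at a mean of 5.79 in sets 7 and 8, differed by 1.24. For each gene, 3 levels per pair of sets are the lowest, the median and the highest of 6 arrays. Standard errors (SE) take no account of the column blocks and may be too small. Scd2, a desaturase that makes monounsaturated fatty acids, was at 11.16, 11.32 and 11.38 in sets 7 and 8 and 9.50, 9.73 and 10.12 in sets 5 and 6. This is a mean of 11.30 ± 0.09 in sets 7 and 8 against 9.79 ± 0.24 in sets 5 and 6 (SD, n = 6 each) and a difference of 1.51 with a standard error of 0.14 from limma, or 2.85-fold higher. The lowest array of sets 7 and 8 lay more than 1 log2 unit above the highest of sets 5 and 6, and the arrays of sets 1 to 4 spanned the space between, at 9.90 to 11.32. Csn3, a milk casein, was at 8.92, 9.15 and 9.28 in sets 7 and 8 against 7.61, 7.87 and 8.25 in sets 5 and 6, a difference of 1.25 (SE 0.11), and all 12 arrays of sets 1 to 4 lay at 7.69 or lower. Its second probe set differed by -0.05. Trp53inp1, a nuclear protein induced by p53, was at 8.27, 8.50 and 8.59 in sets 7 and 8 against 6.97, 7.28 and 7.43 in sets 5 and 6 (difference 1.23, SE 0.13), with -0.04 for its second probe set. Srgn, the core protein of granule proteoglycans, was at 9.10, 9.27 and 9.51 in sets 7 and 8 against 7.65, 8.13 and 8.50 in sets 5 and 6 (difference 1.21, SE 0.15).

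The next 4 genes on the higher side spread more widely in sets 5 and 6 than in sets 7 and 8. Adhfe1, an iron-containing dehydrogenase, was at 7.58, 7.85 and 8.09 in sets 7 and 8 and 6.18, 6.86 and 7.04 in sets 5 and 6. F8, coagulation factor VIII, was at 8.46, 8.67 and 9.01 in sets 7 and 8 against 7.07, 7.64 and 7.93 in sets 5 and 6, and sets 1 to 4 lay lower still, at 5.37 to 7.44. Gas1, a growth arrest protein and Hedgehog co-receptor, was at 10.86, 11.25 and 11.55 in sets 7 and 8 against 9.38, 10.15 and 10.55 in sets 5 and 6, and sets 1 to 4 at 10.33 to 11.80 covered the whole range of sets 7 and 8. Crebrf, a regulator of the CREB3 transcription factor, was at 7.38, 7.72 and 7.92 in sets 7 and 8 against 6.00, 6.66 and 6.97 in sets 5 and 6. In each of these 4 genes the lowest array of the 12 was column 13 or 14, labelled sham 8 h. The differences were 1.15, 1.13, 1.11 and 1.11 in the order named. Cyp4b1, a cytochrome P450, differed by 1.09, Tcim, a small regulator of transcription, by 1.07, Mettl7a1, a methyltransferase-like protein, by 1.07, and Dbp, a transcription factor of the clock output, by 1.02.

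On the lower side, inflammatory ligands made up 6 of the 12 leading genes. Il33, an alarmin of the IL-1 family, was at 5.43, 6.08 and 7.11 in sets 7 and 8 and 7.53, 8.05 and 8.85 in sets 5 and 6, a mean of 6.24 ± 0.62 in sets 7 and 8 against 8.15 ± 0.48 in sets 5 and 6 (SD, n = 6 each) and a difference of -1.92 (SE 0.35), or 3.78-fold lower. Its spread within each pair was among the widest, with columns 7 and 8 at 6.83 and 7.11 and columns 15 and 16 at 5.89 and 5.43, and sets 1 to 4 ranged from 6.82 to 9.25. Cxcl5, a chemokine that draws neutrophils, was at 7.83, 8.00 and 8.50 in sets 7 and 8 against 9.34, 9.82 and 10.44 in sets 5 and 6 (difference -1.77, SE 0.27), and all of sets 1 to 4 lay above sets 7 and 8, at 9.39 to 12.68. Cxcl1, another such chemokine, was at 8.56, 8.85 and 9.63 in sets 7 and 8 against 9.66, 10.27 and 10.89 in sets 5 and 6 (difference -1.25, SE 0.26). Its promoter, printed earlier, carries 2 matches to the NF-kB site. Sets 1 to 4 had more Cxcl1 than either pair, at 10.69, 11.70 and 13.72, with the lowest of the 12 arrays below the highest of sets 5 and 6. Ifnb1, interferon beta, was at 5.42, 5.63 and 5.74 in sets 7 and 8 against 6.31, 6.79 and 7.59 in sets 5 and 6 (difference -1.31). Cxcl11, an interferon-induced chemokine, was at 6.84, 7.23 and 7.43 in sets 7 and 8 against 7.66, 8.35 and 9.01 in sets 5 and 6 (difference -1.18). A second probe set of Cxcl11 differed by -0.34. Ccl2, which draws monocytes, was at 10.46, 10.74 and 11.03 in sets 7 and 8 against 11.10, 11.91 and 12.21 in sets 5 and 6 (difference -1.10). For Ifnb1 and Ccl2 the order was the same as for Cxcl1, with sets 7 and 8 lowest, sets 5 and 6 between and sets 1 to 4 highest at medians of 8.29 and 12.72, and of these 2 genes only Ifnb1 overlapped between sets 5 and 6 and sets 1 to 4. Within sets 5 and 6 Cxcl1 followed the set, since in each block the array of set 5 had less of it than the array of set 6, 10.24 and 10.89 in columns 5 and 6, 9.66 and 10.54 in columns 13 and 14, and 9.84 and 10.29 in columns 21 and 22. Within sets 7 and 8, Cxcl1 had no such order, at 9.38 and 9.63, 8.91 and 8.56, and 8.80 and 8.67.

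The other 6 leading genes on the lower side encode membrane, matrix and binding proteins and an enzyme. Crabp1, which binds retinoic acid in the cytoplasm, was at 9.58, 9.67 and 10.13 in sets 7 and 8 and 11.32, 11.47 and 11.67 in sets 5 and 6, a mean of 9.77 ± 0.23 in sets 7 and 8 against 11.50 ± 0.15 in sets 5 and 6 (SD, n = 6 each) and a difference of -1.72 (SE 0.09). Levels in sets 1 to 4 were 11.72 to 12.17, so that the 3 groups of arrays did not overlap. Sema7a, a membrane-anchored semaphorin, was at 6.26, 6.44 and 6.59 in sets 7 and 8 against 7.73, 7.85 and 8.07 in sets 5 and 6 (difference -1.42). Adam19, a membrane metalloprotease, was at 7.53, 7.79 and 7.89 in sets 7 and 8 against 8.72, 9.15 and 9.45 in sets 5 and 6 (difference -1.40). Mgst3, a microsomal glutathione transferase, was at 8.26, 8.35 and 8.42 in sets 7 and 8 against 9.28, 9.48 and 9.57 in sets 5 and 6 (difference -1.10, SE 0.08), with an SD of 0.07 in sets 7 and 8 and 0.10 in sets 5 and 6 (n = 6 each). Id1, an inhibitor of basic helix-loop-helix factors and a target of BMP signals, differed by -1.25. Col5a3, a chain of type V collagen, differed by -1.22, with -0.16 for its second probe set.

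**Figure D2:**
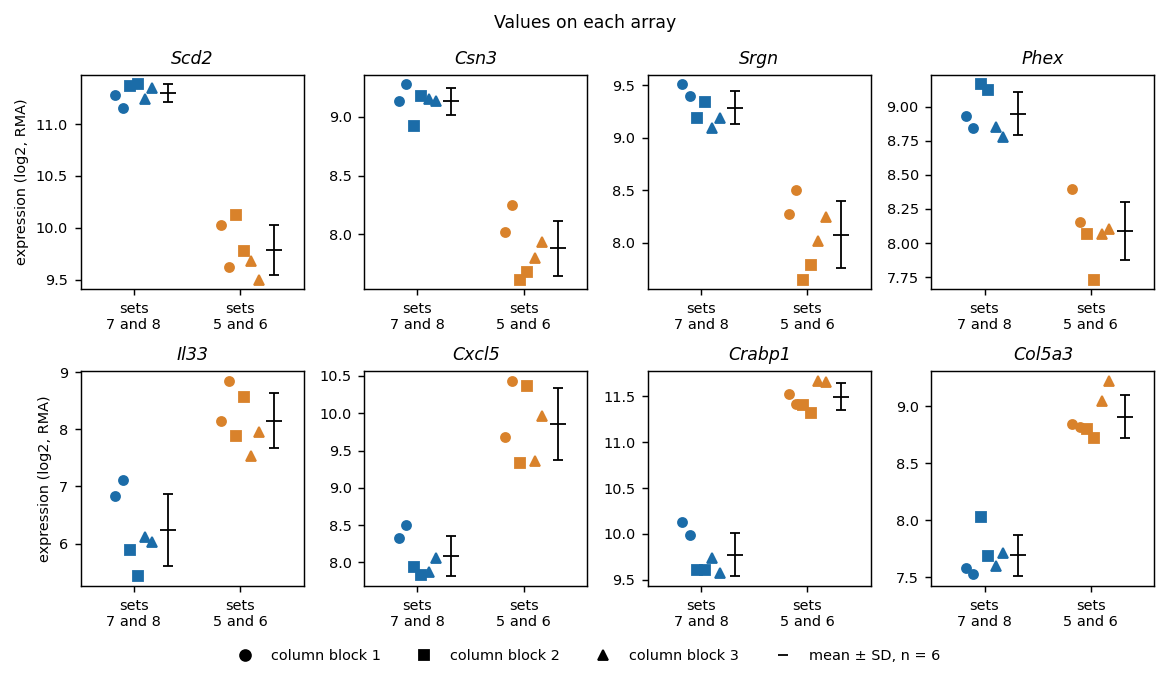
Log2 level of 8 genes on each of the 6 arrays of sets 7 and 8 (left) and the 6 of sets 5 and 6 (right), with the mean and SD beside the points and the shape marking the column block. In none of the 8 genes do the pairs overlap, and Il33 spreads most, from 5.43 to 7.11 in sets 7 and 8.

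In deposited order the levels of Scd2 alternate. As for every gene without overlap, its separation in each block of 8 columns follows from how it was chosen. It was at 11.28 and 11.16 in columns 7 and 8 against 10.03 and 9.62 in columns 5 and 6, at 11.36 and 11.38 in columns 15 and 16 against 10.12 and 9.78 in columns 13 and 14, and at 11.24 and 11.35 in columns 23 and 24 against 9.68 and 9.50 in columns 21 and 22. The blocks did not differ equally, and 21, 74 and 43 genes reached 2-fold in blocks 1, 2 and 3 alone, each with 2 arrays against 2.

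**Figure D3:**
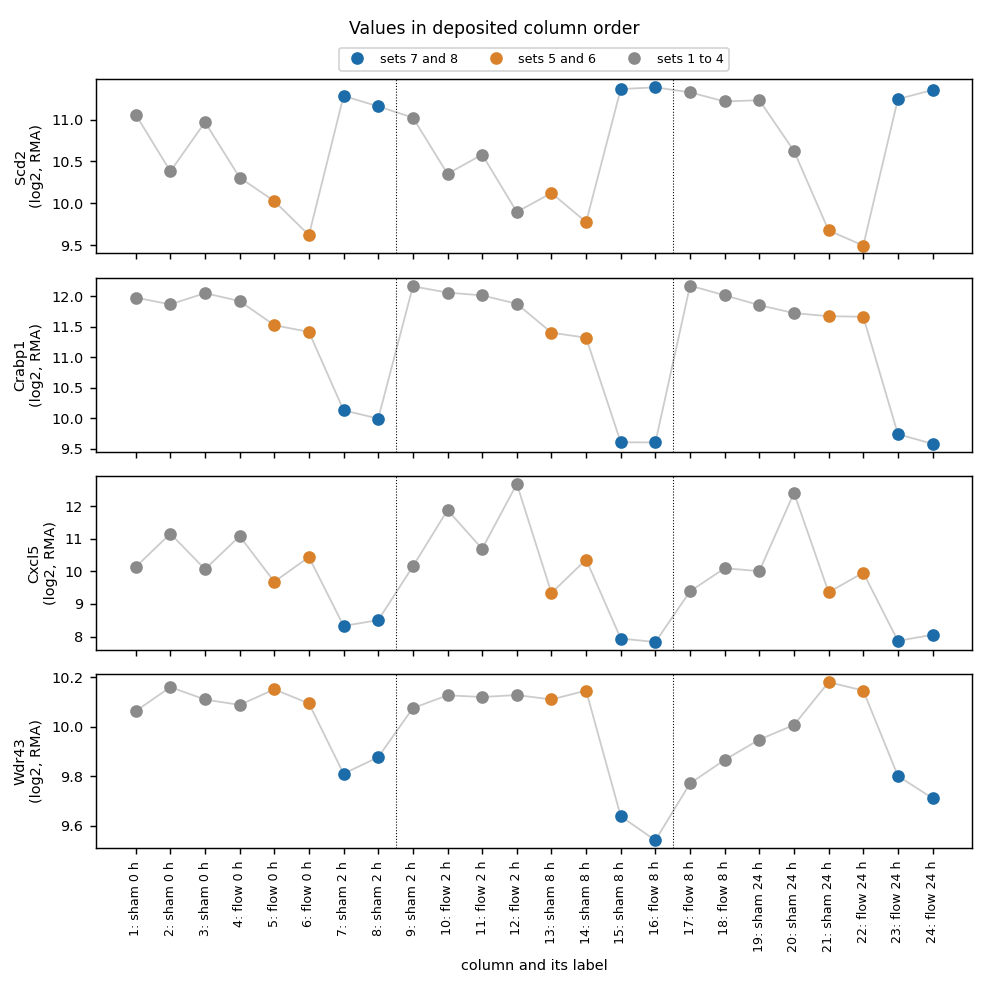
Log2 level of Scd2, Crabp1, Cxcl5 and Wdr43 in all 24 arrays in deposited order, with dotted lines between blocks of 8 columns and labels on the axis. These genes do not overlap between the pairs, so sets 7 and 8 leave sets 5 and 6 in each block, upward for Scd2 and downward for the other 3, and columns 13, 14 and 15 share the label sham 8 h.

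Most genes of the cholesterol pathway were higher in sets 7 and 8. Of 19 measured genes of cholesterol synthesis and uptake, 15 were higher without overlap and 0 lower, beside 8.79% and 6.29% of all genes, with a median difference of 0.35, beside 0.0024 over all genes. The 4 that overlapped were Tm7sf2, Hsd17b7, Ebp and Srebf2. The pathway list runs from the first steps to the last. Idi1, the isopentenyl diphosphate isomerase, was at 9.55, 9.61 and 9.65 in sets 7 and 8 and 9.04, 9.12 and 9.37 in sets 5 and 6 (difference 0.44). Fdft1, squalene synthase, was at 9.59, 9.69 and 9.73 in sets 7 and 8 against 9.03, 9.20 and 9.34 in sets 5 and 6 (difference 0.48), with 3 of its 4 probe sets in that direction. Msmo1, a sterol demethylating enzyme, was at 9.31, 9.39 and 9.54 in sets 7 and 8 against 8.74, 9.02 and 9.13 in sets 5 and 6 (difference 0.47). Dhcr7, the last step of cholesterol synthesis, was at 7.12, 7.24 and 7.32 in sets 7 and 8 against 6.43, 6.76 and 6.92 in sets 5 and 6 (difference 0.50), and Stard4, a carrier of cholesterol between membranes, at 7.81, 7.94 and 8.08 in sets 7 and 8 against 7.19, 7.42 and 7.61 in sets 5 and 6 (difference 0.52). Here it was sets 5 and 6 that stood apart, since for 10 of the 15 genes they lay below all 18 other arrays, and sets 7 and 8 lay outside the other arrays for 0 of the 15. For Idi1, sets 1 to 4 had 9.65 to 10.38, at or above the level of sets 7 and 8. Hmgcs1, named after its values were seen, held the 1 match to the sterol regulatory element and differed by 0.40.

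Of 11 genes of fatty acid synthesis, 4 were higher (36.4%, beside 8.79% of all genes) and 0 lower without overlap, with a median of 0.25. Besides Scd2 these were the desaturases Fads2, at 8.13, 8.21 and 8.29 in sets 7 and 8 and 7.40, 7.67 and 7.75 in sets 5 and 6, and Fads1, at 9.74, 9.81 and 9.90 in sets 7 and 8 against 9.29, 9.35 and 9.42 in sets 5 and 6, and the regulator Srebf1, at 9.61, 9.72 and 9.78 in sets 7 and 8 against 9.21, 9.28 and 9.36 in sets 5 and 6. The differences were 0.58, 0.46 and 0.43. Fads1 and Fads2 were low in sets 5 and 6 relative to all 18 other arrays, whereas Srebf1 was high in sets 7 and 8 relative to all 18. The genes of the chain-building enzymes, Fasn and Acaca, overlapped.

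A large share of lysosomal genes was higher in sets 7 and 8, and here sets 7 and 8 stood apart. Of 33 lysosome and autophagy genes, 15 were higher (45.5%, beside 8.79% of all genes) and 0 lower without overlap, with a median of 0.17. For 12 of the 15, sets 7 and 8 lay above all 18 other arrays. Mcoln1, the calcium channel of the lysosomal membrane, was at 8.32, 8.40 and 8.58 in sets 7 and 8 and 7.93, 8.03 and 8.09 in sets 5 and 6 (difference 0.42, SE 0.06). Ctsa, a protective carboxypeptidase of the lysosome, was at 10.77, 10.83 and 10.86 in sets 7 and 8 against 10.37, 10.48 and 10.53 in sets 5 and 6 (difference 0.36, SE 0.04). Both carry 2 E-boxes in the windows printed earlier. Ctsh, a cysteine protease, was at 9.84, 9.93 and 10.03 in sets 7 and 8 against 9.41, 9.54 and 9.62 in sets 5 and 6 (difference 0.39), and Gaa, which digests glycogen in the lysosome, at 9.41, 9.56 and 9.70 in sets 7 and 8 against 9.13, 9.21 and 9.34 in sets 5 and 6 (difference 0.33). The 12 arrays of sets 1 to 4 lay at 7.71 to 8.09 for Mcoln1, overlapping sets 5 and 6, and at 8.92 to 9.34 for Ctsh, below them.

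Of 16 measured clock genes 5 were higher without overlap (31.2%, beside 8.79% of all genes), namely Dbp, Per3, Per2, Cry1 and Tef. Clock was lower (6.25%, beside 6.29%), and the median of the list was 0.08. Per3, a clock repressor, was at 6.11, 6.17 and 6.24 in sets 7 and 8 and 5.30, 5.49 and 5.60 in sets 5 and 6 (difference 0.70), and Per2, its paralogue, at 5.38, 5.54 and 5.67 in sets 7 and 8 against 4.84, 4.90 and 5.04 in sets 5 and 6 (difference 0.61). Cry1, their partner, was at 10.29, 10.37 and 10.42 in sets 7 and 8 against 9.63, 9.84 and 9.97 in sets 5 and 6 (difference 0.54), above all 18 other arrays. Tef, an output factor like Dbp, was at 8.49, 8.59 and 8.82 in sets 7 and 8 against 8.03, 8.13 and 8.22 in sets 5 and 6 (difference 0.48). A second probe set of Per2 differed by -0.02, and 1 of 3 probe sets of Per3 and of Tef ran the other way. Per2 was dim, under a log2 value of 6 on each of the 12 arrays. In sets 5 and 6 Per2 lay below all 18 other arrays. Nr1d1, Hlf and Nfil3, also clock outputs, overlapped.

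Chemokine genes were split between a few with strong differences and many that overlapped. Of 13 C-X-C chemokines, 0 were higher and 3 lower without overlap (23.1%, beside 6.29% of all genes), with a median of -0.15. The 3 were Cxcl1, Cxcl5 and Cxcl11. Cxcl2, at 6.60, 6.68 and 7.71 in sets 7 and 8 and 7.55, 8.08 and 8.94 in sets 5 and 6, differed by -1.19 and overlapped because columns 7 and 8 were at 7.61 and 7.71 and column 21 at 7.55. Ccl2 was the only one of 19 C-C and C-X3-C chemokines without overlap (5.26%, near the 6.29% of all genes that were lower). Ccl7 overlapped at 9.56, 9.80 and 10.02 in sets 7 and 8 against 9.96, 10.96 and 11.37 in sets 5 and 6 (difference -1.05). On all 12 arrays 6 of the C-X-C and 12 of the C-C and C-X3-C members stayed under a log2 value of 6, where array signal is dim. Of 12 NF-kB subunits and inhibitors 2 were lower (16.7%, beside 6.29% of all genes). Nfkb2, a subunit, was at 7.40, 7.47 and 7.57 in sets 7 and 8 against 7.79, 7.99 and 8.09 in sets 5 and 6. Nfkbia, the inhibitor that NF-kB itself induces, was at 10.65, 10.79 and 10.90 in sets 7 and 8 against 11.10, 11.21 and 11.32 in sets 5 and 6. Both were below all 18 other arrays in sets 7 and 8.

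Cytokines of the IL-6 and IL-1 families and their SOCS inhibitors held 4 lower genes (22.2%) and 2 higher genes (11.1%) among 18, beside 6.29% and 8.79% of all genes. Lif, a ligand of the gp130 receptor, was at 6.53, 6.68 and 6.85 in sets 7 and 8 and 6.88, 7.21 and 7.56 in sets 5 and 6 (difference -0.51), and Clcf1, of the same family, at 7.36, 7.43 and 7.48 in sets 7 and 8 against 7.56, 7.93 and 8.06 in sets 5 and 6 (difference -0.45). Socs2, an inhibitor of cytokine signalling, was higher, at 7.76, 7.79 and 7.86 in sets 7 and 8 against 7.0, 7.37 and 7.56 in sets 5 and 6 (difference 0.45). Among 24 genes of the type I interferon response 2 were higher and 1 lower (8.33% and 4.17%), close to the shares of all genes (8.79% and 6.29%). The lower one was Ifnb1 itself, and Irf7, a transcription factor induced by interferon, was higher, at 11.17, 11.39 and 11.53 in sets 7 and 8 against 10.58, 11.03 and 11.08 in sets 5 and 6 (difference 0.45). The median of this list was 0.04. Tlr2, a receptor for bacterial lipoproteins that the study discusses, was at 8.74, 9.02 and 9.09 in sets 7 and 8 against 8.33, 9.06 and 9.45 in sets 5 and 6 and overlapped.

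Of 10 genes for the synthesis, receptors and transport of prostaglandin E, 4 were lower (40.0%, beside 6.29% of all genes) and 0 higher without overlap, with a median of -0.07. Ptgs2, the inducible cyclooxygenase, was at 10.07, 10.22 and 10.28 in sets 7 and 8 and 10.40, 10.66 and 10.75 in sets 5 and 6 (difference -0.42, SE 0.18). Ptges, the synthase that follows it, was at 7.65, 7.76 and 7.90 in sets 7 and 8 against 8.19, 8.45 and 8.72 in sets 5 and 6 (difference -0.66, SE 0.06). Slco2a1, a prostaglandin transporter, was at 8.72, 8.98 and 9.08 in sets 7 and 8 against 9.71, 9.74 and 9.87 in sets 5 and 6 (difference -0.82), and Ptger4, a receptor, at 7.06, 7.30 and 7.33 in sets 7 and 8 against 7.51, 7.67 and 7.83 in sets 5 and 6 (difference -0.41). For Ptgs2 and Ptger4 the range of sets 1 to 4, 9.54 to 11.38 and 6.87 to 9.30, extended beyond both pairs on either side. Nos2, the inducible nitric oxide synthase, was dim, at 4.84, 5.31 and 5.41 in sets 7 and 8 against 5.26, 5.36 and 5.43 in sets 5 and 6.

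Of 7 genes that control osteoclasts 1 was lower (14.3%, beside 6.29% of all genes) and 0 higher without overlap. Csf1, a growth factor of osteoclast precursors, was at 11.94, 12.10 and 12.20 in sets 7 and 8 and 12.28, 12.36 and 12.54 in sets 5 and 6 (difference -0.29), and was the one without overlap. Tnfsf11, RANKL, which drives osteoclast formation, was at 5.92, 6.23 and 6.70 in sets 7 and 8 against 6.68, 6.93 and 7.43 in sets 5 and 6 (difference -0.77), with -0.82, -1.31 and -0.18 in blocks 1, 2 and 3. Tnfrsf11b, osteoprotegerin, its decoy receptor, was dim, at 3.73, 4.29 and 4.83 in sets 7 and 8 against 4.50, 5.23 and 5.67 in sets 5 and 6 (difference -0.85). The ligands Il34 and Sema3a, which overlapped too, had differences of -0.22 and 0.23.

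Growth factor ligands and genes of extracellular proteolysis were mostly lower where they did not overlap. Of 5 ligands of the EGF receptor, 2 were lower without overlap (40.0%, beside 6.29% of all genes). Ereg, epiregulin, was at 9.69, 9.80 and 9.90 in sets 7 and 8 and 10.53, 10.72 and 10.95 in sets 5 and 6 (difference -0.92), and Hbegf at 7.99, 8.21 and 8.34 in sets 7 and 8 against 8.66, 9.20 and 9.32 in sets 5 and 6 (difference -0.87). Of 6 plasminogen activators and inhibitors, 3 were lower. Plat, tissue plasminogen activator, was at 6.07, 6.55 and 6.76 in sets 7 and 8 against 7.03, 7.43 and 7.82 in sets 5 and 6 (difference -0.93), Plau, urokinase, at 7.67, 8.01 and 8.19 in sets 7 and 8 against 8.45, 8.68 and 8.96 in sets 5 and 6 (difference -0.67), and Plaur, its receptor, at 11.12, 11.21 and 11.31 in sets 7 and 8 against 11.42, 11.59 and 11.65 in sets 5 and 6 (difference -0.35). Among 19 matrix proteases and their TIMP inhibitors 3 were lower (15.8%) and 1 higher (5.26%), beside 6.29% and 8.79% of all genes. Only 1 of the 4, Mmp3, is a protease. Mmp3, stromelysin, was at 5.17, 5.52 and 5.60 in sets 7 and 8 against 5.86, 6.07 and 6.79 in sets 5 and 6, the inhibitors Timp1 and Timp2 were lower by smaller differences of -0.21 and -0.25, and the inhibitor Timp3 was higher but dim, at 5.33, 5.49 and 5.61 in sets 7 and 8 against 4.53, 4.68 and 5.30 in sets 5 and 6, with 0.16 in block 3.

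**Figure D4:**
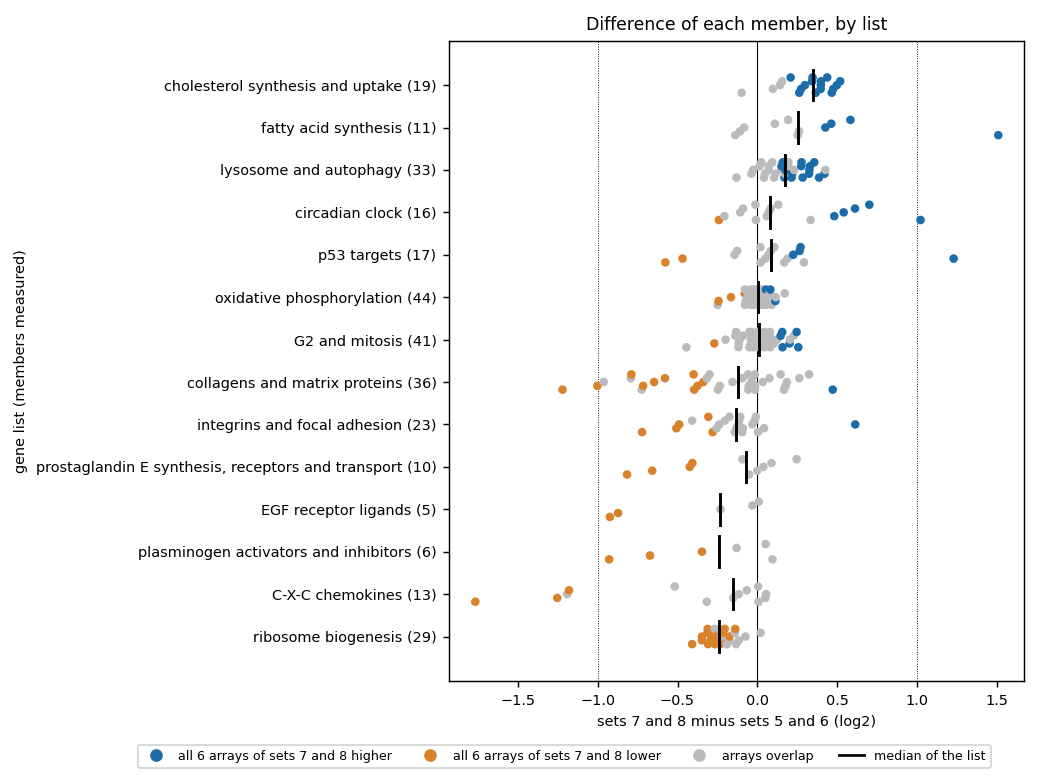
Difference of each measured member of 14 gene lists, sets 7 and 8 minus sets 5 and 6 (log2), with the number of members in brackets and a bar at the median. Blue points are genes with all 6 arrays of sets 7 and 8 higher, orange points genes with all 6 lower, and grey points genes that overlap. Cholesterol genes lie to the right with a median of 0.35 and ribosome biogenesis genes to the left with a median of -0.24, while oxidative phosphorylation and G2 and mitosis lie at 0.01.

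Matrix genes were mixed, and the lower ones included chains of collagens V and VI. Of 36 collagens and matrix proteins, 10 were lower (27.8%) and 1, Col18a1, higher (2.78%) without overlap, beside 6.29% and 8.79% of all genes. The median of the list was -0.12. Col6a3 was at 10.08, 10.51 and 10.72 in sets 7 and 8 and 11.37, 11.51 and 11.59 in sets 5 and 6 (difference -1.0), and Col6a2, a chain of the same collagen, at 8.81, 8.99 and 9.35 in sets 7 and 8 against 9.57, 9.74 and 9.93 in sets 5 and 6 (difference -0.72). Col5a3 was at 7.53, 7.64 and 8.03 in sets 7 and 8 against 8.72, 8.83 and 9.23 in sets 5 and 6 (difference -1.22, SE 0.10). Its second probe set differed by only -0.16. Fbln2, fibulin 2, was at 6.78, 7.32 and 7.35 in sets 7 and 8 against 7.61, 7.79 and 8.51 in sets 5 and 6 (difference -0.79). Of the 11 genes without overlap, sets 7 and 8 stood apart from all 18 other arrays in 8. Among 23 integrin and focal adhesion genes 5 were lower (21.7%) and 1 higher (4.35%). Vcam1, an adhesion molecule induced by inflammation, was at 10.64, 10.71 and 10.85 in sets 7 and 8 against 11.09, 11.47 and 11.73 in sets 5 and 6 (difference -0.72), and the higher one was the integrin chain Itgb7, at 10.69, 10.90 and 11.07 in sets 7 and 8 against 9.97, 10.24 and 10.62 in sets 5 and 6 (difference 0.61).

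Transcription factors of the early response were mixed, and most overlapped. Fos, Fosb, Junb, Egr1, Egr2, Egr3, Nr4a1, Nr4a2 and Nr4a3, which respond within minutes to many stimuli, all overlapped, with differences from -0.28 for Egr2 to 0.30 for Nr4a1. Of 10 AP-1 subunits 3 were lower and 1 higher, beside 6.29% and 8.79% of all genes. Fosl1 was at 10.51, 10.68 and 10.84 in sets 7 and 8 and 11.17, 11.31 and 11.54 in sets 5 and 6 (difference -0.69), Jun at 10.16, 10.23 and 10.33 in sets 7 and 8 against 10.42, 10.48 and 10.79 in sets 5 and 6 (difference -0.30), and Atf3, a stress-induced member, was higher, at 9.51, 9.63 and 9.90 in sets 7 and 8 against 8.99, 9.13 and 9.46 in sets 5 and 6 (difference 0.47). Of a list of 16 Egr, Nr4a, Klf and other early genes 3 were lower (18.8%), Klf2, Klf5 and Myc, and 1 higher (6.25%). Klf5 was at 7.68, 7.96 and 8.18 in sets 7 and 8 against 8.48, 8.63 and 8.88 in sets 5 and 6, and Klf2, known as a flow-induced factor in endothelium, at 6.42, 6.60 and 6.78 in sets 7 and 8 against 7.04, 7.19 and 7.57 in sets 5 and 6 (difference -0.67). Klf15, known as a target of glucocorticoids, was higher, at 7.14, 7.29 and 7.49 in sets 7 and 8 against 6.45, 6.70 and 7.03 in sets 5 and 6 (difference 0.57). Of 20 BMP readouts 3 were lower, among them Id1, at 7.66, 8.12 and 8.28 in sets 7 and 8 against 8.64, 9.52 and 9.79 in sets 5 and 6, and Id3, at 8.34, 8.52 and 8.70 in sets 7 and 8 against 8.98, 9.57 and 9.83 in sets 5 and 6, and Id2 overlapped at a difference of -0.60. Of 12 YAP targets 3 were lower (25.0%, beside 6.29%). Amotl2, a negative regulator of YAP, was at 9.12, 9.33 and 9.41 in sets 7 and 8 against 9.43, 9.85 and 10.08 in sets 5 and 6, and Ccn2, a matricellular protein, overlapped at a difference of -0.87, with -1.57 in block 3.

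Genes for the assembly of ribosomes were lower in sets 7 and 8 by small and even steps. Of 29 measured genes of ribosome biogenesis, 19 were lower (65.5%, beside 6.29% of all genes) and 0 higher without overlap, with a median of -0.24. Npm1 at 0.02 was the only one above 0. Wdr43, a part of the small subunit processome, was at 9.54, 9.76 and 9.88 in sets 7 and 8 and 10.09, 10.15 and 10.18 in sets 5 and 6 (difference -0.41, SE 0.07). Wdr12, of the large subunit assembly complex, was at 9.63, 9.75 and 9.84 in sets 7 and 8 against 10.01, 10.09 and 10.15 in sets 5 and 6 (difference -0.35), Polr1b, a subunit of RNA polymerase I, at 7.86, 7.91 and 8.03 in sets 7 and 8 against 8.12, 8.27 and 8.40 in sets 5 and 6 (difference -0.35), and Noc2l and Rrp12, further assembly factors, differed by -0.31 and -0.31. In 16 of the 19 neither pair stood apart from all 18 other arrays, and for Wdr43 sets 1 to 4 spanned 9.77 to 10.16. Myc, a known driver of these genes, was at 10.03, 10.19 and 10.30 in sets 7 and 8 against 10.41, 10.46 and 10.49 in sets 5 and 6 (difference -0.27).

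Of 17 p53 targets 4 were higher (23.5%, beside 8.79% of all genes), led by Trp53inp1, and 2 lower (11.8%, beside 6.29%), among them Gadd45g, a stress sensor, at 7.62, 7.82 and 7.95 in sets 7 and 8 and 8.20, 8.36 and 8.61 in sets 5 and 6 (difference -0.58). Of 27 hypoxia and glycolysis genes 6 were lower (22.2%) and 1 higher (3.7%). Higd1a, a mitochondrial protein induced by hypoxia, was at 11.13, 11.15 and 11.37 in sets 7 and 8 against 11.44, 11.58 and 12.11 in sets 5 and 6 (difference -0.47), and Hk2, hexokinase 2, at 9.51, 9.60 and 9.63 in sets 7 and 8 against 9.75, 9.88 and 10.22 in sets 5 and 6 (difference -0.37). The median of that list was -0.03, -0.45 and -0.04 in blocks 1, 2 and 3, so that block 2, with columns 13 and 14, gave most of the difference. Of 7 metallothionein and zinc genes 3 were lower (42.9%, beside 6.29% of all genes), Mt1, Mt2 and Mtf1. Mt2, a metallothionein, was at 11.99, 12.03 and 12.12 in sets 7 and 8 against 12.32, 12.64 and 12.91 in sets 5 and 6 (difference -0.58), and Mt1 at 11.13, 11.22 and 11.37 in sets 7 and 8 against 11.37, 11.58 and 12.22 in sets 5 and 6 (difference -0.50), with 0.22 for a second probe set of Mt1.

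Of 28 NRF2, glutathione and antioxidant genes 5 were higher and 3 lower, beside 8.79% and 6.29% of all genes. The higher ones were the glutathione transferases Gsta4, Gstm1 and Gstm2, the catalase Cat and Txnip, an inhibitor of thioredoxin, and the lower ones Sod2, the mitochondrial superoxide dismutase, and Cyp1b1 and Tiparp, known targets of the aryl hydrocarbon receptor. Gsta4 was at 12.34, 12.54 and 12.71 in sets 7 and 8 and 11.37, 11.81 and 12.25 in sets 5 and 6 (difference 0.72), and Gsta3, its relative, overlapped at 5.85, 6.41 and 7.17 in sets 7 and 8 against 6.11, 7.69 and 7.88 in sets 5 and 6 (difference -0.81). Genes of cell division and respiration had medians near 0. Of 41 genes of G2 and mitosis 6 were higher and 1 lower, with a median of 0.01, of 38 of DNA replication 3 were higher and 3 lower, and of 44 of oxidative phosphorylation 3 were higher and 3 lower, with medians of 0.01 and 0.01. Of 31 genes of the unfolded protein and amino acid response 7 were higher and 3 lower, and of 28 proteasome genes 3 were higher and 5 lower.

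Markers of the cell line were present in part. Of the osteocyte markers, Gja1 (connexin 43), Pdpn (podoplanin), Cd44 and Phex were well expressed, while Dmp1, Sost, Mepe and Fgf23, markers of mature osteocytes, stayed under a log2 value of 6 on each of the 12 arrays. Phex, an endopeptidase of osteocytes that controls phosphate, was at 8.78, 8.89 and 9.17 in sets 7 and 8 and 7.73, 8.09 and 8.40 in sets 5 and 6 (difference 0.86, SE 0.11), and it differed by 0.61, 1.25 and 0.73 in blocks 1, 2 and 3. Pdpn was at 12.20, 12.35 and 12.51 in sets 7 and 8 against 12.55, 12.63 and 12.73 in sets 5 and 6 (difference -0.27) and Cd44, a hyaluronan receptor, at 11.23, 11.37 and 11.40 in sets 7 and 8 against 11.72, 11.81 and 11.96 in sets 5 and 6 (difference -0.51), both lower. Of 4 osteoblast markers 1, Col1a1, was lower (25.0%, beside 6.29% of all genes), with -0.0019 for its second probe set. On all 12 arrays 3 of the 4 stayed under a log2 value of 6. Of 7 macrophage, 6 endothelial, 3 adipocyte, 4 chondrocyte, 5 muscle and 5 epithelial markers 0 differed without overlap, and 6, 5, 2, 3, 3 and 5 of them stayed under a log2 value of 6 on all 12 arrays. In bulk RNA, fewer cells of a type and less RNA per cell cannot be told apart.

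Arrays of both pairs carry the same label in 2 cases, and a gene whose pairs do not overlap has the same sign inside both of them by construction. For label sham 8 h, column 15 was set against columns 13 and 14, and for label flow 24 h, columns 23 and 24 against column 22. The median of the cholesterol list was 0.22 inside sham 8 h and 0.46 inside flow 24 h, that of lysosome and autophagy 0.22 and 0.15, and that of ribosome biogenesis -0.32 and -0.22, beside -0.0009 and 0.0026 over all genes. Among members, 18 of 19 cholesterol genes and 27 of 33 lysosome and autophagy genes were above 0 inside both labels, and 28 of 29 ribosome biogenesis genes were below 0. For 15, 15 and 19 of these the sign was fixed in that way. Among the members that overlapped, 3 of 4 cholesterol genes and 12 of 18 lysosome and autophagy genes were above 0 inside both labels. Of the ribosome biogenesis genes that overlapped, 9 of 10 were below 0. The share of all genes with the same sign inside both labels was not counted. The arrays used here are also part of those that chose the sets, so nothing is read from these counts. Scd2 was at 11.36 in column 15 against 10.12 and 9.78 in columns 13 and 14, all labelled sham 8 h, and at 11.24 and 11.35 in columns 23 and 24 against 9.50 in column 22, all labelled flow 24 h. Crabp1 was at 9.60 in column 15 against 11.40 and 11.32 in columns 13 and 14, and at 9.74 and 9.58 in columns 23 and 24 against 11.66 in column 22. Inside sham 8 h and inside flow 24 h, the C-X-C chemokine median was -0.09 and -0.61, the difference of Ifnb1 was -0.68 and -1.96, that of Ccl2 was -0.67 and -1.49, and that of Cxcl5 was -1.91 and -2.0. For Gas1 the wider difference lay inside sham 8 h, at 1.87 against 0.92 inside flow 24 h. Each label has 1 array on one side, and whether the difference changes with the label was not tested.

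**Figure D5:**
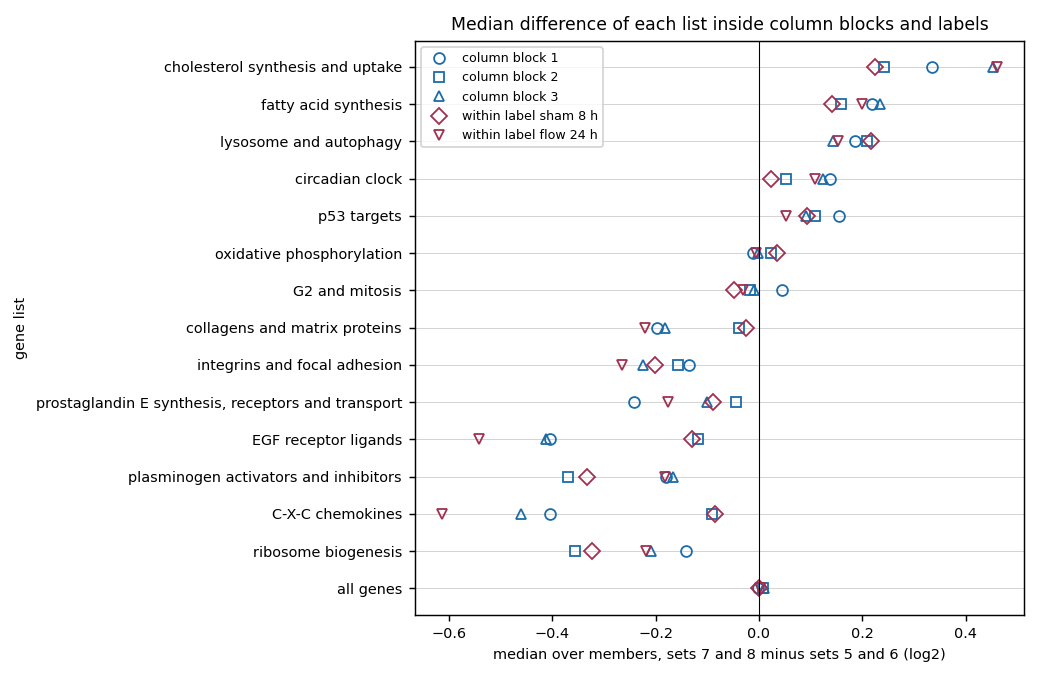
Median difference over all members of 14 gene lists and over all genes, sets 7 and 8 minus sets 5 and 6 (log2), inside each block of 8 columns (2 arrays against 2) and inside each label that holds arrays of both pairs (3 arrays each). The lipid, lysosome and ribosome lists are on 1 side in all 5 values, which members without overlap fix in part, and the C-X-C chemokine list ranges from -0.61 to -0.09.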

How the data were processed

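The authors deposited log2 expression values, 1 column per array. The submitters' processing notes name RMA, and its version is not given in the sources used here. The values were used as deposited. The table holds 22690 probe sets, of which 20380 have 1 gene symbol in the platform annotation, 691 have several and were left unnamed, 1555 have none and 64 are controls. RefSeq left 20351 of the symbols as they were, and 29 kept the annotation's symbol. Each gene took its probe set with the highest mean, a choice made for 4956 of 12393 genes.

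The difference is the mean of set 7 minus set 5 and set 8 minus set 6. Its standard error comes from a limma fit (version 3.58.1, R 4.3.3) of 8 set means over all 24 arrays. This fit has no term for the column block, so the standard errors and the n of 6 count neighbouring columns as independent arrays. Neighbouring columns correlated at 0.496 to 0.604 in sets 5 and 6 and 0.733 to 0.744 in sets 7 and 8. The standard errors may therefore be too small. The fit was also run on simulated data, but there all arrays were drawn as independent, so that run does not bear on this. Genes are called without overlap when all 6 arrays of a pair lie beyond all 6 of the other. Only the spike-ins were tested, by exact permutation. The replicate numbers of the labels were not used to pair arrays, and fits with them or with the block of 8 columns as a block were alternatives.

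The members and the 35 gene lists were chosen with earlier results of these data known. Named genes are the 12 largest differences in each direction without overlap and with a mean of at least 6 in the higher pair, up to 5 members of each list without overlap and 3 with it, the markers of 8 cell type lists, and genes the study discusses, and the text names only some of them. The alternatives were blocks and labels as terms, each column block alone, quantile normalization again, median centring, medians, covariates for RNA quality, other summaries of probe sets, a filter on dim genes, other thresholds and each array left out in turn.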

Additional observations from a re-analysis of the deposited data

Results flagged for a closer look

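In 190 groups of 6 arrays examined, 3 held an array far from the other 5 of its pair (Dixon's test at 95%, critical value 0.625), where chance alone flags about 1 in 20. All 3 lay in sets 7 and 8. Col5a3 reached 8.033 in column 15, labelled sham 8 h, with the next array at 7.714. Nos2, a dim gene, was at 4.842 in column 24, labelled flow 24 h, with the next at 5.2. Tlr2 was at 8.738 in column 16, labelled flow 8 h, with the next at 8.96.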

How the results depend on the processing

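The main counts were 1089 genes higher and 779 lower without overlap, and 15 and 15 at 2-fold or more. The labels' replicate numbers are shared numbers only, and the replicate block gave 1127 and 810, and 15 and 16, and moved no count by more than 1.5 times. With the label as a block the counts without overlap were 1704 and 1401. A block of 8 columns alone, with 2 arrays against 2, gave 3429 and 3201 in block 1, 3867 and 3382 in block 2, and 3624 and 3078 in block 3. At 2-fold, block 1 alone gave 6 higher, block 2 alone 44 higher and 30 lower, and block 3 alone 28 lower. Without column block 1, an alternative chosen after seeing the data, 1782 were higher and 1406 lower. The mean of all probe sets of a gene left 8 higher genes at 2-fold, and counting all probe sets separately gave 1219 lower without overlap. A 1.5-fold limit gave 79 and 55. Leaving out 1 array gave 1123 to 1255 higher and 811 to 915 lower without overlap, and 9 to 20 higher and 14 to 16 lower at 2-fold. The value of 9 came without column 14, labelled sham 8 h, and no other single array moved a count by more than 1.5 times. Fewer arrays make it easier not to overlap, and the cause of the other shifts was not tested. For 95 genes and 24 alternatives each, 2109 of 2280 differences moved by less than 1 SD and 171 moved by more. Changes of sign were counted only for genes without overlap, where there were 0. For those genes, leaving out arrays, a single column block or medians cannot change the sign, so this 0 was fixed in part. Changes of sign in genes that overlap were not counted. On fewer than 3 of the 12 arrays 4550 genes reached a log2 value of 6, below which the signal is dim.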
